A study of Mus musculus with 10 samples.

Results

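The proteasome genes on this array were taken as all probe sets (groups of oligonucleotides that together report 1 transcript) whose single gene symbol begins Psma to Psmg followed by a digit. The choice gave 46 genes of the 8251 measured with 1 symbol, and 58 probe sets. Of the 46, 44 encode proteasome subunits, activators or assembly chaperones, and 2 match by name only. Psmc3ip encodes a meiotic recombination factor, and Psme3ip1 encodes a partner of the activator subunit Psme3. The arrays measured RNA from whole brain of newborn mice at postnatal day 0, on the Affymetrix MG-U74Av2 platform, in animals with a single X chromosome (39,XO) or a pair (40,XX). They fell into 4 groups. XmO mice (replicates 1, 2 and 7, n = 3) carried only a maternal X and came from the cross written C57BL/6J x C3H/Paf, and XX_Paf mice (replicates 1, 2 and 3, n = 3) were 40,XX animals of that cross. XpO mice (replicates 15 and 18, n = 2) carried only a paternal X and came from the cross written In(X)/C3H x C57BL/6J, and XX_InX mice (replicates 1 and 19, n = 2) were 40,XX animals of that cross. All groups thus mixed C57BL/6J with a C3H background, and neither a transgene nor a treatment is named. Each cross supplied 1 XO group and 1 XX group, so the parental origin of the single X and the cross cannot be told apart in XmO against XpO. If the crosses are written mother first, the single X of each XO group came from the C57BL/6J parent. Only the XX groups then also carried an X from the C3H/Paf or In(X)/C3H parent. In that case the number of X chromosomes and the presence of that X cannot be told apart in XO against XX.

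The proteasome degrades proteins that carry ubiquitin chains. Its core particle is a barrel of alpha and beta rings, in which Psmb5, Psmb6 and Psmb7 hold the catalytic sites, and a regulatory cap of ATPase (Psmc) and non-ATPase (Psmd) subunits recognises, unfolds and feeds in the substrate. In immune cells, or after exposure to interferon, Psmb8, Psmb9 and Psmb10 replace these catalytic subunits and form the immunoproteasome, which favours peptides for MHC class I molecules. Neurons depend on proteasomes for synapse development and protein quality control, and the healthy brain is known for low immunoproteasome expression.

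The deposited values are intensities on a linear scale, and every array had a mean of 500.3 after trimming 2% at each end. Neuronal marker genes checked the tissue: 20 of 22 probe sets were above background on all 10 arrays. No animal carried a Y chromosome, so the highest reading among 9 probe sets for Y-linked genes served as each array's background, between 33.6 and 136.6. By this measure 45 of the 58 proteasome probe sets were above background on every array. Limma was fitted to log2 intensities of the 8695 probe sets that passed a filter on low values. Of the proteasome probe sets, 50 from 42 genes passed, whereas 8 did not. The 4 genes with no tested probe set were Psmb8, Psmb9, the cap ATPase Psmc4 and Psmc3ip, and the other 4 untested probe sets were dimmer extra ones for Psmb1, Psmb4, Psmc5 and Psme1. A call below means an adjusted p under 0.05 (Benjamini-Hochberg over all 8695 probe sets), and a difference is a log2 difference of group means.

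Proteasome transcripts in the newborn brain did not differ between XO and XX mice by a call, and the estimates were small. Of the 50 tested probe sets 23 were higher and 27 lower in XO than in XX, with equal weight for each cross, and the median log2 difference was -0.01, against 0.00 (0.000422) over all tested probe sets. Limma called 0 of the 50, and 0 had an unadjusted p under 0.05, whereas the shares over all tested probe sets were 0.0115% and 2.6%. The 95% interval lay within a 1.5-fold difference in either direction for 43 of the 50 (86.0%), against 71.6% of all tested probe sets. These shares are not matched for precision, as the median SE was 0.117 for the 50 and 0.151 over all tested. The 7 whose interval reached further were those of Psmd10, Psmd2, Psmd5 and Psmg2, the dimmer probe sets for Psmb4 and Psmg3, and 1 of the 3 for Psmd11. In none of the 50 did the XO arrays lie on the same side of the XX arrays within both crosses, which 0.851% of all tested probe sets did. In whole-brain RNA, fewer cells of a type and less RNA per cell cannot be told apart.

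**Figure D1:**
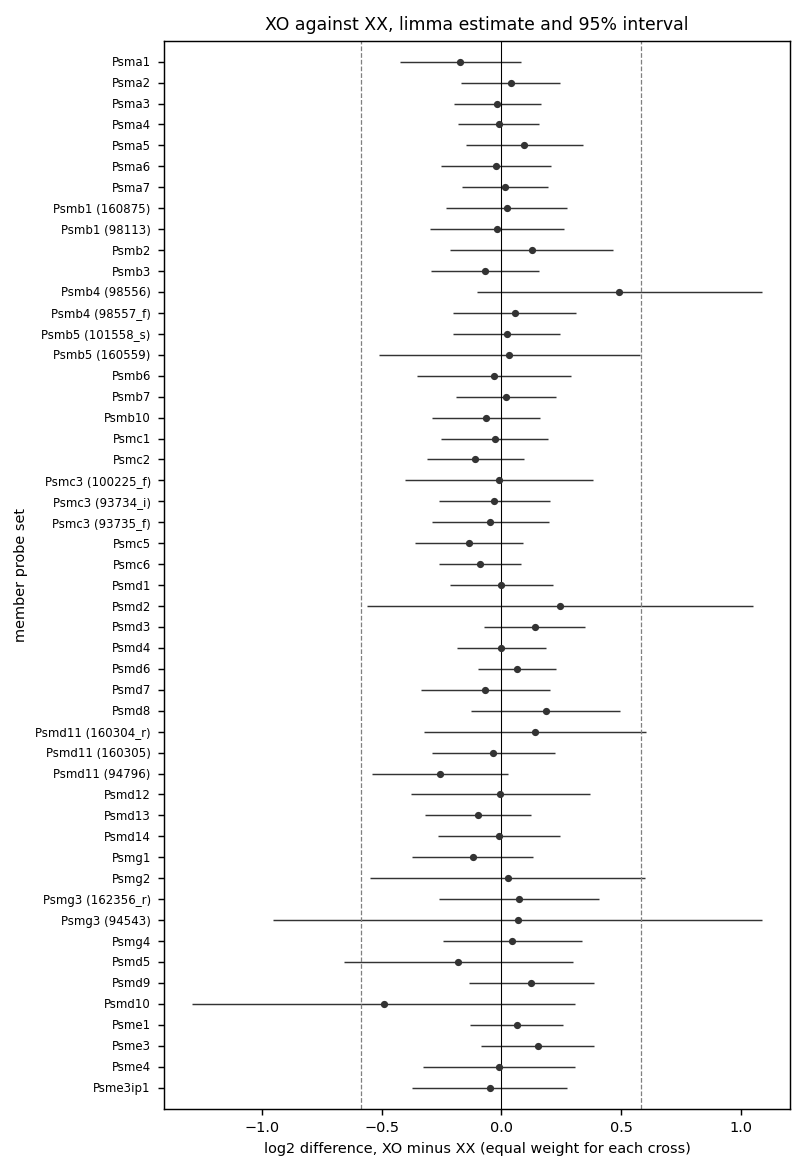
Log2 difference, XO minus XX, for each of the 50 tested proteasome probe sets, ordered by role from alpha ring to activators. Points are limma estimates, bars are 95% intervals and dashed lines mark a 1.5-fold difference; 43 intervals lie between the dashed lines, and estimates run from -0.49 for Psmd10 to 0.49 for the dimmer Psmb4 probe set.

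In XmO against XX_Paf, 25 probe sets were higher and 25 lower. Limma called 0 of them (1 had an unadjusted p under 0.05), where 0.023% of all tested probe sets were called and 5.53% had such a p. The groups did not overlap for 8 of the 50, where 13.9% of all tested probe sets did not overlap. In XpO against XX_InX, 24 were higher and 26 lower. Limma called 0 of the 50, with 0 at an unadjusted p under 0.05, where the shares over all tested were 0.0115% and 3.38%. The groups did not overlap for 5 of the 50, against 23.4% of all tested probe sets. The difference of the monosomy effects between the crosses was also tested directly. Limma called 0 of the 50 for it, with 0 at an unadjusted p under 0.05, where the shares over all tested were 0.023% and 5.91%, and the smallest adjusted p was 0.841. XO and XX arrays were apart in opposite directions in the crosses for 0 of the 50, against 2.02% of all tested probe sets.

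The constitutive catalytic subunits were detected on every array. Psmb5, the chymotrypsin-like subunit, read 2175.7, 2610.1 and 2467.6 in XmO, 2686.8, 2695.8 and 2804.5 in XX_Paf, 2764.7 and 2140.3 in XpO, and 1837.9 and 2363.0 in XX_InX on its brighter probe set. The 3 XmO arrays lay below the 3 XX_Paf arrays, while the XpO and XX_InX arrays overlapped. The XO against XX difference was 0.02 (SE 0.10, 95% interval -0.20 to 0.25, limma adjusted p = 0.9995), and XmO against XX_Paf gave -0.18 (adjusted p = 0.887). The 2 XX groups did not overlap for this probe set, with a difference of 0.39 for XX_Paf against XX_InX (limma adjusted p = 0.283). A second, dimmer Psmb5 probe set ran from 218.1 on XpO 15 to 549.0 on XpO 18 and gave 0.03 for XO against XX (interval -0.51 to 0.58) and -0.31 for XX_Paf against XX_InX, so the Psmb5 probe sets differ in sign between the XX groups. Psmb6, the caspase-like subunit, read 3112.9, 2608.1 and 2552.4 in XmO, 3261.2, 2385.4 and 2733.4 in XX_Paf, 3339.8 and 1950.5 in XpO, and 3018.5 and 2308.9 in XX_InX. All of its groups overlapped, and the XpO arrays enclosed every other value (XO against XX -0.03, interval -0.35 to 0.29). Psmb7, the trypsin-like subunit, read 2258.1, 2164.0 and 2235.2 in XmO, 2377.9, 2177.9 and 2036.1 in XX_Paf, 2190.5 and 1692.0 in XpO, and 1742.2 and 2069.2 in XX_InX. Its XO and XX arrays overlapped in both crosses (0.02, interval -0.19 to 0.23).

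Psmb8 and Psmb9, the inducible partners of Psmb5 and Psmb6, were at background. Psmb8 read 29.6, 21.7 and 83.4 in XmO, 13.9, 24.4 and 60.2 in XX_Paf, 41.5 and 59.6 in XpO, and 98.9 and 68.2 in XX_InX, and it exceeded background on 1 of 10 arrays. Psmb9 read 27.3, 19.2 and 36.4 in XmO, 23.6, 21.8 and 31.8 in XX_Paf, 17.0 and 32.2 in XpO, and 27.0 and 29.8 in XX_InX, above background on 0 of 10 arrays. Neither was tested, and a probe set not above background has only an upper bound, so no fold is given. Psmb10, the inducible partner of Psmb7, differed from both in being above background on 10 of 10 arrays. It read 729.4, 795.2 and 847.5 in XmO, 740.1, 837.7 and 712.6 in XX_Paf, 716.3 and 847.7 in XpO, and 941.8 and 828.2 in XX_InX. These groups overlapped in both crosses, and XO against XX gave -0.06 (SE 0.10, interval -0.29 to 0.16, limma adjusted p = 0.9995).

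**Figure D2:**
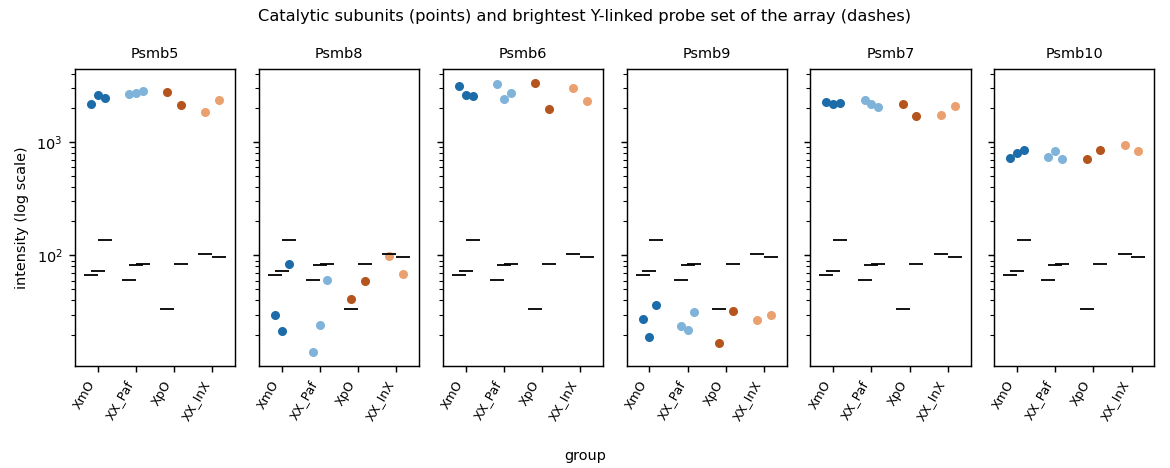
Intensity (log scale) of each constitutive catalytic subunit beside its inducible partner, by group; points are arrays and dashes are the brightest Y-linked probe set of the same array. Psmb5, Psmb6, Psmb7 and Psmb10 lie above the dashes on all 10 arrays, Psmb8 on 1 and Psmb9 on 0.

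Interferon-regulated and antigen-processing genes were set beside these subunits. Of 28 probe sets for 24 interferon response genes, 3 were above background on all arrays and 11 on none. Of the 10 tested, 2 were higher and 8 lower in XO than in XX, with a median of -0.08, and limma called 0. In the Paf cross against the In(X) cross, 3 of the 10 were higher and 7 lower, with a median of -0.24 and 0 called. Ifitm3 had the smallest p there, at -0.76 (limma adjusted p = 0.0576). Tap1, a subunit of the transporter that carries proteasome products into the endoplasmic reticulum, shares a short intergenic stretch with Psmb9, their starts lying head to head 226 bases apart. Its brighter probe set was above background on 10 of 10 arrays (144.8 to 264.6), unlike that of Psmb9, and gave an XO against XX difference of 0.07. Among 16 tested probe sets of 11 antigen processing genes, 12 were higher and 4 lower in XO, with a median of 0.06. The 16 split into 8 higher and 8 lower in XmO against XX_Paf, and 13 higher and 3 lower in XpO against XX_InX. For XO against XX limma called 0. B2m alone fell below an unadjusted p of 0.05, and it was lower in XO (-0.44). Of all tested probe sets, 2.6% fell below that value. The part of immune cells in the Psmb10 values was not tested; of 24 probe sets for microglial and immune marker genes, 11 were above background on all arrays, with sums of 3921 to 5364 in XpO and 4129 to 4966 in XmO, 4251 to 4559 in XX_Paf and 4647 to 5389 in XX_InX.

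The upstream sequences of Psmb5, Psmb8 and Psmb9 are shown because these genes mark the detected and undetected sides of the pair. They are the 200 bases before each start in the RefSeq annotation of GRCm38.p6, given 5′ to 3′ on the gene's own strand: chr14:54617996-54618195, minus strand, for Psmb5, chr17:34197995-34198194, plus strand, for Psmb8 and chr17:34187331-34187530, minus strand, for Psmb9. Capitals mark matches to the motifs searched. Psmb5 holds a match to the antioxidant response element core TGACNNNGC, Psmb8 a match to the gamma-activated site core TTCNNNGAA, and Psmb9 a CCAAT box read on the other strand.
Psmb5: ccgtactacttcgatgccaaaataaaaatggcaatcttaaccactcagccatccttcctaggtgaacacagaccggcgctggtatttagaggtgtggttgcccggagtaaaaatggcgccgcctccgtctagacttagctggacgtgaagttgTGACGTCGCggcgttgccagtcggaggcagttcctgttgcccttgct
Psmb8: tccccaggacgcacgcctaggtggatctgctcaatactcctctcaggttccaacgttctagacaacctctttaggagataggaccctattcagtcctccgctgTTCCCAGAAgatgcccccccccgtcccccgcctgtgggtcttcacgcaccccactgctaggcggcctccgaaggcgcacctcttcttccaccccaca
Psmb9: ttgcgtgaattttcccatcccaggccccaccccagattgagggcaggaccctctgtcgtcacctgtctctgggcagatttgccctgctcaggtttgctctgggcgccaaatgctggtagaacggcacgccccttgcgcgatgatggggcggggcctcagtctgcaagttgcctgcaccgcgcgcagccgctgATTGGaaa
The windows searched ran from 250 bases before to 50 after each start, on both strands, and 39 of the 46 genes had one. The motif matches did not overlap each other in the stretches printed. The Ets core CCGGAAG lay in 16 of the 39 (41.0%), against 9.93% of all 27025 genes with a window and 19.4% of the 5179 tested genes. The nuclear respiratory factor 1 motif (GCGCA, any base, GCGC) lay in 7 (17.9%, against 5.19% of all and 11.7% of tested genes) and the interferon-stimulated response element core (GAAA, any 2 bases, GAAA) in 5 (12.8%, against 3.99% and 3.55%), namely Psmb3, Psmd4, Psmd9, Psme1 and Psmg4. The shares for TGACNNNGC (15.4% against 14.0% of all genes), CCAAT (38.5% against 41.1%) and TTCNNNGAA (7.69% against 9.55%) were near those of all genes. A match describes these letters only.

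The alpha subunits, which form the gated outer rings, had coefficients of variation from 5.38% to 13.3% over the 10 arrays. The cap subunits Psmd6 (6.23%) and Psmc6 (8.03%) lay within this range, and Psmd12 (23.6%) above it. Among the alpha subunits Psma7 had the lowest, with a highest array 1.14 times its lowest (1920.5 to 2185.8). For XO against XX, 3 of the 7 were higher and 4 lower, with a median of -0.01. In XmO against XX_Paf the largest alpha estimate was that of Psma1, which read 495.0, 477.1 and 452.8 in XmO and 638.2, 545.2 and 502.7 in XX_Paf. These arrays did not overlap, and the difference was -0.24 (limma adjusted p = 0.887). In the other cross Psma1 read 593.5 and 472.9 in XpO and 544.0 and 596.8 in XX_InX, which overlapped. Psma2 lay the other way in the Paf cross, at 3662.6, 3258.1 and 3519.7 in XmO against 3188.8, 3235.2 and 3169.8 in XX_Paf (0.12, limma adjusted p = 0.910). Its XpO arrays, 3835.0 and 2821.7, enclosed the XX_InX arrays, 3125.4 and 3664.7.

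Of the 10 tested beta-ring probe sets, 7 were higher and 3 lower in XO than in XX, with a median of 0.02. Psmb4 is a structural beta subunit. The brighter Psmb4 probe set read 4613.7, 4227.4 and 3865.3 in XmO, 4858.7, 3579.3 and 3528.1 in XX_Paf, 4326.3 and 3047.6 in XpO, and 3570.7 and 3636.2 in XX_InX. Its groups overlapped in both crosses (XO against XX 0.06). The dimmer one read 89.4, 82.6 and 159.1 in XmO, 79.8, 88.8 and 92.1 in XX_Paf, 148.9 and 128.7 in XpO, and 64.1 and 112.8 in XX_InX, close to background. It gave 0.70 for XpO against XX_InX (limma adjusted p = 0.9998), where the brighter one gave 0.01. A further Psmb4 probe set stayed at 2.2 to 32.7, above background on 0 arrays. Psmb3, another structural beta subunit, read 2633.0 and 2731.8 in XpO, below 2951.2 and 2792.1 in XX_InX (-0.10, limma adjusted p = 0.9998). Its XmO arrays, 2467.6, 3079.8 and 2244.0, and its XX_Paf arrays, 3023.6, 2365.5 and 2587.2, overlapped.

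The cap ATPases, the ring of Psmc subunits that unfolds substrates, had 7 tested probe sets from 5 genes, and all 7 were lower in XO than in XX. The estimates ran from -0.14 for Psmc5 to -0.01 for a dimmer Psmc3 probe set, with a median of -0.05, and 3 of the 7 belong to Psmc3. All 7 were lower in XmO than in XX_Paf (median -0.13) and all 7 higher in XX_Paf than in XX_InX (median 0.14), and these comparisons share the XX_Paf arrays. The XX_Paf arrays were uneven. The median log2 deviation of the 7 from their own means over the 10 arrays was 0.186 on XX_Paf 1. On XX_Paf 2 it was 0.050 and on XX_Paf 3 it was 0.005. In XpO against XX_InX 3 were higher and 4 lower (median -0.01). Psmc6 was the only tested ATPase whose XmO and XX_Paf arrays did not overlap. It read 3939.1, 4201.9 and 4183.2 in XmO, 4827.4, 4721.4 and 4350.5 in XX_Paf, 4179.2 and 4033.4 in XpO, and 3742.5 and 4544.2 in XX_InX. The XmO arrays were all below the XX_Paf arrays, by -0.17 on the log2 scale (limma adjusted p = 0.887), and the XpO arrays lay between the XX_InX arrays. Psmc4 was above background on 3 of 10 arrays (45.2 to 119.5) and was not tested.

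The non-ATPase cap subunits, which include the ubiquitin receptor Psmd4 and the deubiquitinase Psmd14, had 13 tested probe sets. In XO against XX 6 were higher and 7 lower, with a median of 0.00 (-0.000155). Psmd4 read 2228.1, 2205.3 and 2198.6 in XmO, 2178.6, 1966.6 and 2242.5 in XX_Paf, 2028.2 and 1649.7 in XpO, and 1915.9 and 1889.2 in XX_InX. Every Paf-cross XO array was above both In(X)-cross XO arrays, with a difference of 0.27 (SE 0.12, limma adjusted p = 0.969 for XmO against XpO), while XO and XX arrays overlapped in both crosses. Psmd6, a cap subunit of the lid, read 2590.2 and 2502.0 in XpO and 2253.8 and 2488.0 in XX_InX, a difference of 0.10 (limma adjusted p = 0.9998). Its XmO arrays (2523.0, 2762.4 and 2828.4) enclosed its XX_Paf arrays (2627.8, 2647.7 and 2673.6). Psmd3, another lid subunit, was the member with an unadjusted p under 0.05 in XmO against XX_Paf, at 0.28 (limma adjusted p = 0.877). It was named after its values were seen, and its groups overlapped, at 1885.7, 1855.2 and 1530.4 in XmO and 1364.9, 1433.7 and 1539.6 in XX_Paf. Psmd2, a ubiquitin-receptor scaffold of the cap base, read near background (30.8 to 132.3, above it on 5 arrays).

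Psmd11, a lid subunit, was read by 3 probe sets that did not give 1 answer. The one of middle brightness read 682.6, 677.6 and 580.4 in XmO, 726.5, 661.2 and 646.9 in XX_Paf, 577.0 and 424.2 in XpO, and 465.7 and 523.8 in XX_InX. All 6 arrays of the Paf cross were above the 4 of the In(X) cross, the closest being XmO 7 at 580.4 and XpO 15 at 577.0. The log2 differences were 0.38 for XmO against XpO (limma adjusted p = 0.969) and 0.46 for XX_Paf against XX_InX (limma adjusted p = 0.283). The brightest read 1877.7, 2917.4 and 1763.9 in XmO, 2859.3, 2561.1 and 2604.3 in XX_Paf, 2557.5 and 2170.3 in XpO, and 2548.1 and 2821.5 in XX_InX, with crosses overlapping (-0.15 and -0.01). The dimmest ran from 113.9 to 289.3 and gave 0.08 and -0.52. The crosses are therefore separated by 1 Psmd11 probe set of 3.

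The crosses were compared among XO mice and among XX mice. In XmO against XpO, 30 of the 50 were higher in XmO and 20 lower. Limma called 0 (4 had an unadjusted p under 0.05), beside 0.0115% called and 4.83% at an unadjusted p under 0.05 of all tested. The arrays did not overlap for 4 members, against 17.4% of all tested probe sets. In XX_Paf against XX_InX, 29 were higher and 21 lower with a median of 0.07, against -0.02 over all tested. Limma called 0 of the 50 (4 had an unadjusted p under 0.05), beside 0.0805% called and 13.8% at an unadjusted p under 0.05 of all tested. The arrays did not overlap for 19 members, against 37.1% of all tested probe sets. The mean of both comparisons, Paf cross against In(X) cross, was added after the values were seen. Limma called 0 of the 50 for it (6 had an unadjusted p under 0.05), beside 0.104% called and 12.7% at an unadjusted p under 0.05 of all tested. All 6 Paf-cross arrays lay on the same side of all 4 In(X)-cross arrays for 3 of the 50, against 3.06% of all tested probe sets.

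Psmg1, an assembly chaperone that pairs with Psmg2 to build the alpha ring, showed the smallest p between the crosses. It read 302.9, 330.6 and 294.2 in XmO, 294.6, 353.6 and 307.3 in XX_Paf, 472.5 and 430.7 in XpO, and 495.3 and 540.1 in XX_InX. The group means were 309 ± 19 (SD, n = 3), 319 ± 31.1 (SD, n = 3), 452 ± 29.6 (SD, n = 2) and 518 ± 31.7 (SD, n = 2). All 6 arrays of the Paf cross were below all 4 of the In(X) cross. The difference was -0.55 for XmO against XpO (SE 0.16, limma adjusted p = 0.780) and -0.70 for XX_Paf against XX_InX (SE 0.16, limma adjusted p = 0.165). For the crosses as a whole it was -0.63 (SE 0.12, interval -0.88 to -0.37, limma adjusted p = 0.0651). With a filter at the 50th percentile of mean intensity that adjusted p was 0.0444, which is a call, as it was for 22 of the 6211 probe sets then tested. Over all alternatives the adjusted p of Psmg1 ran from 0.0444 to 0.214 with an estimate of -0.69 to -0.55. XO and XX differed less, by -0.12 (limma adjusted p = 0.9995), although both XpO arrays lay below both XX_InX arrays (-0.20, limma adjusted p = 0.9998). Its partner Psmg2 gave 0.14 for the crosses as a whole with wide scatter (95.9 to 302.7).

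Psmd9, a cap assembly chaperone, read 492.2, 475.1 and 504.6 in XmO and 444.9, 384.8 and 405.1 in XX_Paf, a difference of 0.26 (limma adjusted p = 0.887). Its XpO arrays, 400.3 and 553.8, enclosed its XX_InX arrays, 463.3 and 482.1. Psmg3, which works with Psmg4 in alpha-ring assembly, read 762.8, 884.1 and 900.1 in XmO and 728.5, 682.7 and 746.0 in XX_Paf on its brighter probe set, a difference of 0.24 (limma adjusted p = 0.891). That probe set read 670.7 and 1250.7 in XpO and 1085.2 and 872.4 in XX_InX, and XX_Paf against XX_InX gave -0.44 (limma adjusted p = 0.394). The dimmer Psmg3 probe set ran from 59.9 to 328.0 with overlapping groups in the Paf cross. Psmd10, also called gankyrin, is a cap chaperone and the only X-linked gene of the 46; it was named for its position, after its values were seen. It read 142.0, 77.3 and 114.0 in XmO, 228.7, 141.2 and 103.0 in XX_Paf, 153.6 and 52.6 in XpO, and 83.7 and 196.5 in XX_InX. Its XO and XX arrays overlapped in both crosses, and 7 of 10 arrays were above background. The XO against XX difference was -0.49 (SE 0.37, limma adjusted p = 0.9995), and its interval of -1.29 to 0.31 holds both no difference and a 2-fold lower level.

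The activators bind the ends of the core in place of the cap. Psme1, the interferon-inducible PA28 alpha subunit, read 1467.8, 1693.7 and 1621.2 in XmO, 1606.5, 1399.6 and 1325.6 in XX_Paf, 1776.8 and 1629.3 in XpO, and 1752.8 and 1686.8 in XX_InX. XO against XX gave 0.06 (interval -0.13 to 0.26), and the XX_Paf arrays were all below the XX_InX arrays (-0.26, limma adjusted p = 0.391). A second Psme1 probe set stayed at 3.3 to 65.2, above background on 0 arrays. Psme2, the PA28 beta subunit, shares its probe sets with Psme2b and so is not among the 46. The brighter shared probe set read 646.1, 540.6 and 745.6 in XmO, 642.6, 640.4 and 618.9 in XX_Paf, 634.7 and 666.5 in XpO, and 753.4 and 737.2 in XX_InX. It gave -0.09 for XO against XX (interval -0.33 to 0.14), with both XpO arrays below both XX_InX arrays.

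Psme3, the nuclear PA28 gamma activator, read 448.4, 462.2 and 417.0 in XmO, 404.9, 437.0 and 443.7 in XX_Paf, 632.5 and 609.0 in XpO, and 465.1 and 581.1 in XX_InX. The 6 Paf-cross arrays were all below the 4 In(X)-cross arrays, and the crosses as a whole differed by -0.38 (SE 0.11, limma adjusted p = 0.201). XmO against XpO gave -0.49 (SE 0.16, limma adjusted p = 0.780), and XX_Paf against XX_InX gave -0.28 (limma adjusted p = 0.438). Both XpO arrays were also above both XX_InX arrays (0.26, limma adjusted p = 0.9998), while XmO and XX_Paf overlapped. Psme4, the PA200 activator, lay the other way, at 667.9, 607.6 and 596.5 in XmO, 754.6, 718.0 and 724.4 in XX_Paf, 675.8 and 390.3 in XpO, and 396.0 and 498.6 in XX_InX. XX_Paf exceeded XX_InX on every array, by 0.72 (SE 0.21, limma adjusted p = 0.191), but XpO 15 reached the level of the Paf cross. For the crosses as a whole Psme4 gave 0.50 (limma adjusted p = 0.216), and without XpO 15 it gave 0.70 (limma adjusted p = 0.0289), which is a call. Leaving out that array raised the calls over all 8695 probe sets from 9 to 105.

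**Figure D3:**
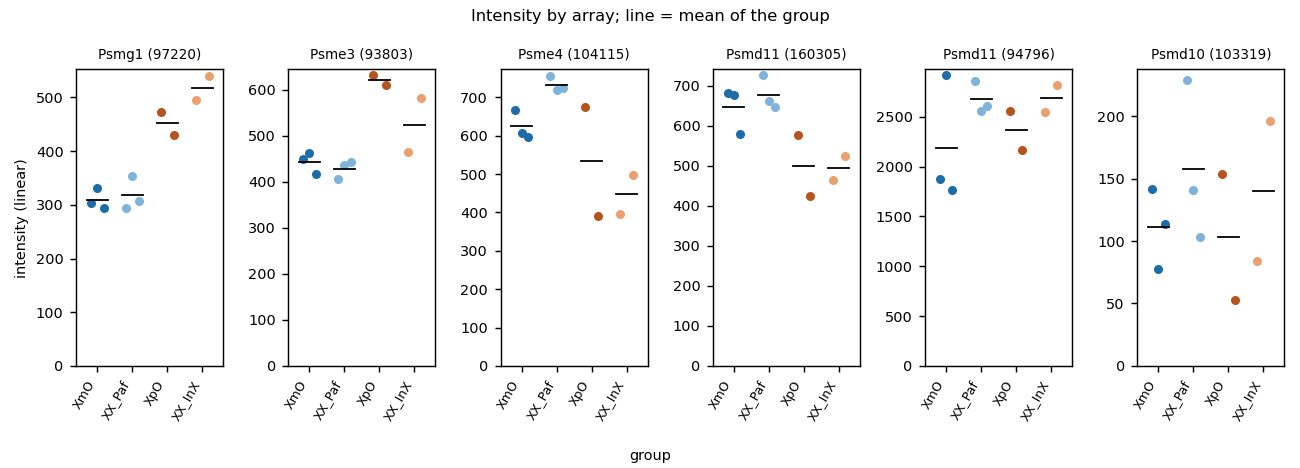
Intensity (linear, from 0) of 6 probe sets by group; points are arrays and lines are group means (XmO and XX_Paf n = 3, XpO and XX_InX n = 2). Psmg1 and Psme3 are lower, and the dimmer of the Psmd11 probe sets shown higher, on all 6 Paf-cross arrays than on the 4 In(X)-cross arrays, whereas the brighter Psmd11 probe set and Psmd10 overlap.

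The sequences upstream of Psmg1 and Psme3 are shown because these genes separated the arrays of the crosses. They are the 200 bases before each RefSeq start in GRCm38.p6, at chr16:95990961-95991160, minus strand, for Psmg1 and chr11:101316013-101316212, plus strand, for Psme3. Capitals mark the Ets core CCGGAAG in both and, in Psme3, a CCAAT box read on the other strand.
Psmg1: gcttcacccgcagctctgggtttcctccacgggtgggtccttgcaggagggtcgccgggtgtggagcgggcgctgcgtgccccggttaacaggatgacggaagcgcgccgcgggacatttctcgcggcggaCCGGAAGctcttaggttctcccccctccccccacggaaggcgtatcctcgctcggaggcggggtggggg
Psme3: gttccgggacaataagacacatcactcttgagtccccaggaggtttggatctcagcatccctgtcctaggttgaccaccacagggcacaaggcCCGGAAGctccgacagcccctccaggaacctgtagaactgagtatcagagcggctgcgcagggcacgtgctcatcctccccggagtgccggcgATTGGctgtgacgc
The Psmd11 and Psme4 windows also hold CCGGAAG, which lay in 16 of the 39 proteasome genes with a window (41.0%). These are reference sequences, and differences between the C57BL/6J and C3H backgrounds at the probes or promoters were not tested.

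Single arrays weighed on the comparisons between crosses. XpO 18 was the lowest array for 20 of the 50 tested proteasome probe sets, whereas it was the lowest for 13.2% of all tested probe sets. Among the 28 core and cap probe sets with a mean intensity over 1000, it was the lowest for 16, with a median deviation from the probe set's own mean of -0.21. Over all 1962 tested probe sets of that brightness its median deviation was -0.04, and it was the lowest for 19.1%. Of the 8 assembly chaperone probe sets, 3 were highest on XpO 18 (Psmg4, Psmd9 and the brighter one for Psmg3) and 2 were lowest there (Psmd5 at 438.5 and Psmd10 at 52.6). Their median deviation was 0.21 on XpO 18 and 0.26 on XpO 15. Over all 50 proteasome probe sets the median deviation on XpO 15 was 0.14. Over the 28 brighter core and cap probe sets it was 0.096 on XpO 15 and 0.135 on XX_Paf 1. XX_Paf 1 was the highest array for 15 of the 50 probe sets, and for 13.0% of all tested probe sets. XX_InX 1 was the lowest array for 9 of the 50, and for 13.0% of all tested probe sets. Among the 28 brighter core and cap probe sets it was the lowest for 6, with a median deviation of -0.09. Over all 1962 of that brightness it was the lowest for 15.2%, with a median deviation of -0.01. Whether a hybridisation batch moved with these arrays was not tested.

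**Figure D4:**
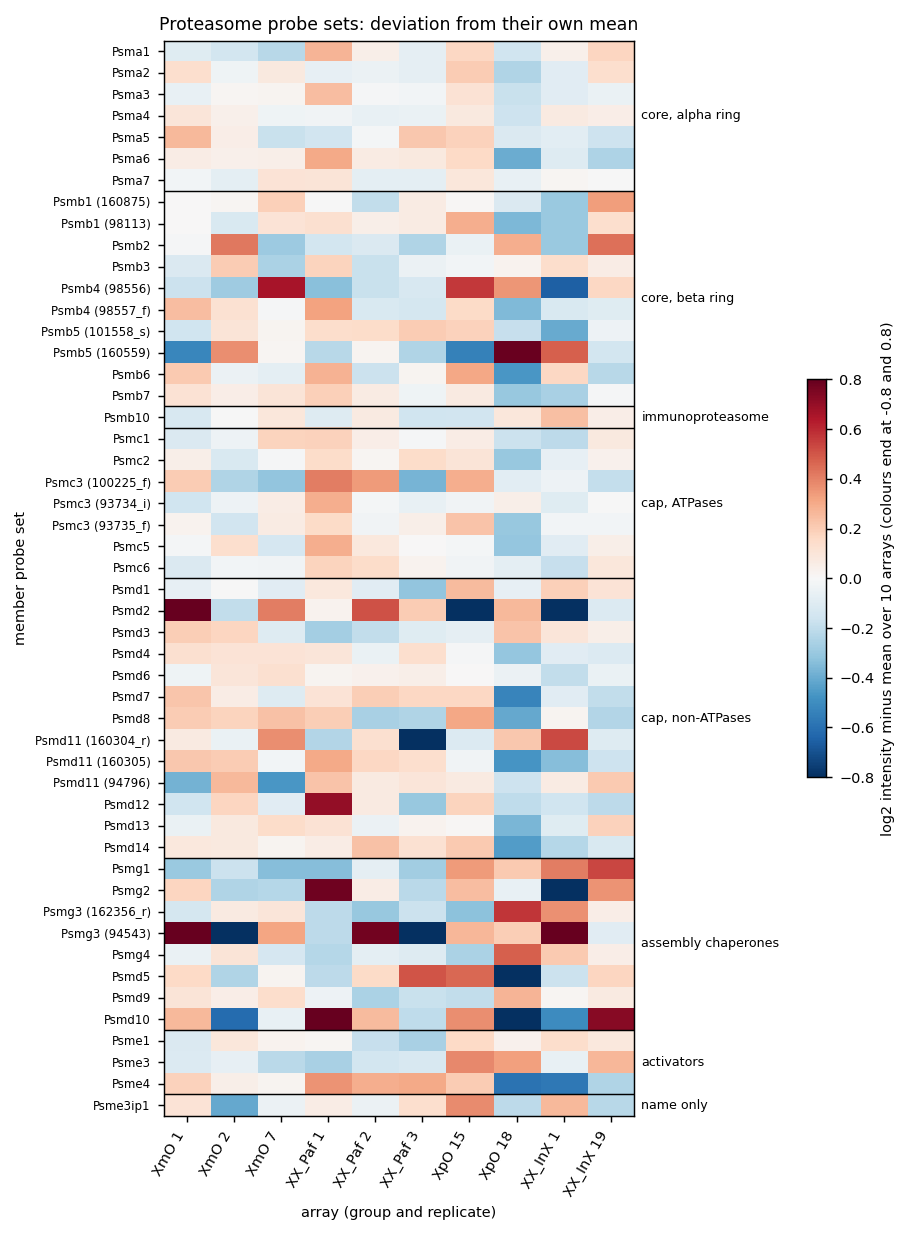
Log2 intensity of the 50 tested proteasome probe sets on each array, as the deviation from the probe set's own mean over the 10 arrays; black lines part the roles. XpO 18 is lowest for 20 of the 50, 17 of them core or cap subunits; of the 8 assembly chaperone probe sets 3 are highest and 2 lowest on it.

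The proteasome estimates of XmO against XpO and of XX_Paf against XX_InX, which share no array, had a correlation of 0.64 across the 50 probe sets (0.12 across all 8695), and 35 of the 50 had the same sign (57.2% of all). Probe sets are not independent replicates, and several share a gene. Without XpO 18 the correlation was 0.15 across the 50 and -0.18 across all, and 17 of the 50 had the same sign. The 2 XO against XX estimates, also without shared arrays, had a correlation of 0.13 across the 50 and -0.09 across all, and 23 of the 50 had the same sign (42.3% of all).

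**Figure D5:**
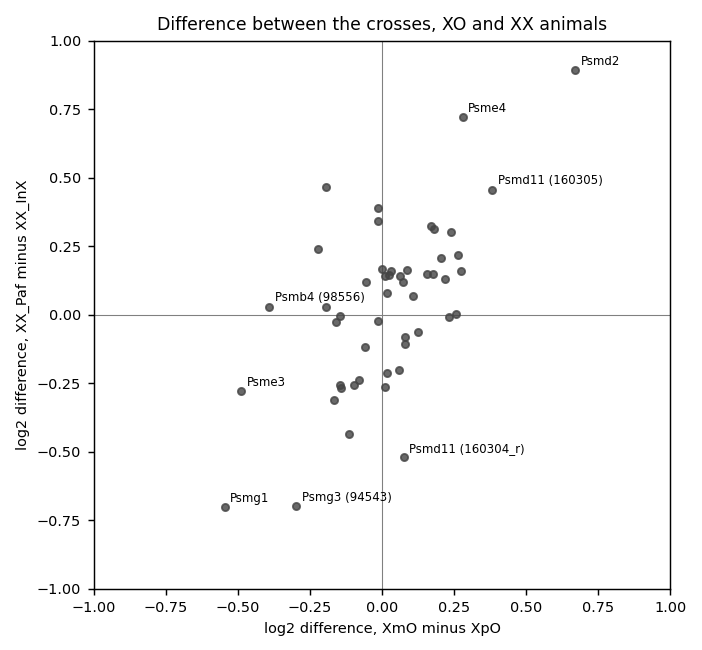
Log2 difference of XmO minus XpO (horizontal) and of XX_Paf minus XX_InX (vertical) for the 50 tested proteasome probe sets; points are limma estimates and those far from 0 are named. Of the 50, 35 have the same sign on both axes, with all 10 arrays in use.

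Among genes that work with the proteasome, limma called 0 in each of the 7 comparisons. In XO against XX, 1 probe set each of the ubiquitin and the partner genes had an unadjusted p under 0.05. Over all tested probe sets 2.6% did. Of 26 tested probe sets of 21 ubiquitin and conjugation genes, 12 were higher and 14 lower in XO than in XX, with a median of -0.01. Of 35 tested probe sets of 23 partner genes, such as shuttle factors and deubiquitinases, 16 were higher and 19 lower, with a median of -0.01. In XX_Paf against XX_InX, 26 of these 35 were higher, with a median of 0.12, and 5 had an unadjusted p under 0.05 (13.8% of all tested did). In the Paf cross against the In(X) cross 7 of the 35 did, against 12.7% of all tested. The example of smallest p in XX_Paf against XX_InX was the cap-bound deubiquitinase Usp14, at 0.63 (limma adjusted p = 0.184). In XmO against XX_Paf, Ufd1, a cofactor that brings ubiquitinated substrates to the unfoldase p97, gave 0.99 (limma adjusted p = 0.592) and the shuttle factor Ubqln2 gave -0.62 (limma adjusted p = 0.744). Of the 8 tested erythroid probe sets, 5 were higher and 3 lower in XX_Paf than in XX_InX, with a median of 0.11. The summed intensity of 12 erythroid probe sets was 11820 to 18010 in XmO, 12330 to 17670 in XX_Paf, 6783 to 8074 in XpO and 4639 to 6930 in XX_InX, and the alpha-globin gene Hba-a1 was called in XX_Paf against XX_InX (1.58, limma adjusted p = 0.0211). The beta-globin gene Hbb-b2 gave 1.36 in that comparison (limma adjusted p = 0.0798). In the Paf cross against the In(X) cross, 5 of the 8 were higher and 3 lower. Limma called 2 of the 8 there, against 0.104% of all tested. These were Hba-a1 (1.27) and Hbb-b2 (1.34), each with a limma adjusted p of 0.0103. The embryonic globin Hbb-bh1, with group means of 59.47 to 83.55, close to background, gave -0.50 in XX_Paf against XX_InX (limma adjusted p = 0.602). Of the erythroid probe sets 4 were above background on all arrays. Their part in the values of Psmg1, Psme3 and Psme4 was not tested.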

How the data were processed

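The deposited values are linear intensities, 1 for each probe set on each of 10 arrays. The algorithm by which the authors summarised probes is not given in the sources used here. No label says whether an array is 1 animal or a pool, so the p-values measure only the spread between these samples, which may be technical. Depth has no counterpart on arrays, and the number of arrays limits precision.

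Intensities under the 10th percentile (15.09) were raised to it and taken to log2. Of 12488 probe sets, 66 controls were left out, and 8695 with a mean log2 value at or above the 30th percentile were tested. Group means were modelled in R 4.3.3 by limma 3.58.1 (lmFit, eBayes with trend, 6 residual degrees of freedom, two-sided). The code was tested on simulated data. XO against XX weighs the crosses equally. Probe sets with suffix _s, _f, _r or _i (14 of 58) can be less specific.

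Members and lists were chosen with earlier results of these data known. Values per array are given for the catalytic, inducible and PA28 subunits, and for up to 3 probe sets per direction and comparison with the smallest p among those whose groups did not overlap, with the other probe sets of those genes. Of 39 genes with a RefSeq promoter window, 3 have more than 1. Psmb1, Psmb2, Psmb7, Psmc3, Psmd3, Psmd7 and Psmg2 were not matched. The Paf cross against In(X) cross comparison and the restriction to plain _at probe sets were added after seeing the data. Alternatives covered the floor, the filter, the scaling, the model and each array left out.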

Additional observations from a re-analysis of the deposited data

How the results depend on the processing

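Limma called 0 members in each of the 6 planned comparisons under every alternative that was run (0 to 4 had an unadjusted p under 0.05 in the reported fits). The added comparison of the crosses called 1 with the filter at the 50th percentile (Psmg1, adjusted p = 0.0444; 22 of 6211 probe sets in all), and 0 to 1 when single arrays were left out (Psme4 without XpO 15, adjusted p = 0.0289, where 105 of 8695 probe sets were called in all, against 9 with every array). The members' median moved beyond the spread between replicates (pooled SD of 0.105) only with the XpO arrays. It ran from -0.15 without XpO 15 to 0.12 without XpO 18 in XpO against XX_InX, from -0.11 without XpO 18 to 0.14 without XpO 15 in XmO against XpO, and from -0.18 without XpO 18 to 0.12 without XpO 15 for the difference between crosses. With XpO 18 and XX_InX 1 both left out, the median for XmO against XpO was -0.11. A replicate block could be fitted only for XmO and XX_Paf arrays 1 and 2, with 1 residual degree of freedom: it called 0 members, with a median of -0.03. Same-numbered arrays of these groups did not deviate together (correlations of -0.01 and -0.04). No label says what the numbers mean, and these correlations cannot show whether the arrays shared more than a number. Dim probe sets, such as those of Psmd10 and Psmd2, limit what can be seen of small differences.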
